A study of Mus musculus with 2 samples.

Results

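The proteasome is the protease complex that degrades proteins marked with ubiquitin, and its genes were followed here in RNA from the nucleoplasm of mouse macrophages grown from bone marrow. The set held every gene whose symbol runs from Psma to Psmg with a number and that has at least 1 transcript annotated as protein_coding. These were 49 of the 55536 gene rows. A core particle of alpha rings and beta rings holds the active sites, and a regulatory particle of ATPases and non-ATPase subunits recognises, unfolds and admits the substrate. Interferons and other inflammatory signals are known to replace the catalytic subunits encoded by Psmb5, Psmb6 and Psmb7 with those of the immunoproteasome, encoded by Psmb8, Psmb9 and Psmb10, and to raise the PA28 activator encoded by Psme1 and Psme2. The immunoproteasome shapes the peptides that macrophages present on MHC class I.

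The study had 1 group of 2 libraries, labelled biological replicates 1 and 2, so there was no untreated or other group to compare with and no test between conditions. The cells came from C57BL/6J mice and were given Lipid A, the part of lipopolysaccharide that Toll-like receptor 4 binds. They were exposed for 12 h at 100 ng/ml, kept without ligand for 12 h after a wash, and exposed again for 30 min at the same dose. The nucleoplasmic RNA was depleted of ribosomal RNA before sequencing. The labels give both libraries the same donor identifier and separate biosamples, but do not say whether different mice or dishes were used, so their spread may be technical. Libraries were built from 1 µg of RNA in replicate 1 and from 500 ng in replicate 2, and held 23845991 and 20675294 counts over genes. All 8 macrophage markers examined, Csf1r and Adgre1 among them, reached 1 TPM in each library, with a summed level of 2097 TPM in replicate 1 and 3526 TPM in replicate 2. None of the markers of T and NK cells, B cells, neutrophils, dendritic cells or fibroblasts did, the neutrophil genes S100a8 and S100a9 reaching 1.16 and 1.10 TPM in replicate 2 alone, and Cd3e, Cd3g, Cd8a, Ncr1 and Elane were listed at 0.

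Levels are given in TPM, a share of all transcripts corrected for transcript length, which can be compared between genes of a library. They come from the authors' tables built on alignments (alignment-based), unless the authors' other table, built directly on the reads (read-based), is named. Of the 49 members, 46 (93.9%) reached at least 1 TPM in both libraries, against 41.9% of all 22028 protein-coding genes. At 10 TPM or more in both were 33 members (67.3%), against 15.6% of protein-coding genes. The rule used names and annotation and no level, but the members were chosen with earlier results of these data known. Ordered by mean level, 38 of the 48 neighbouring pairs of members had ranges that overlapped between the libraries, so the order is firm only between members far apart in it.

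**Figure D1:**
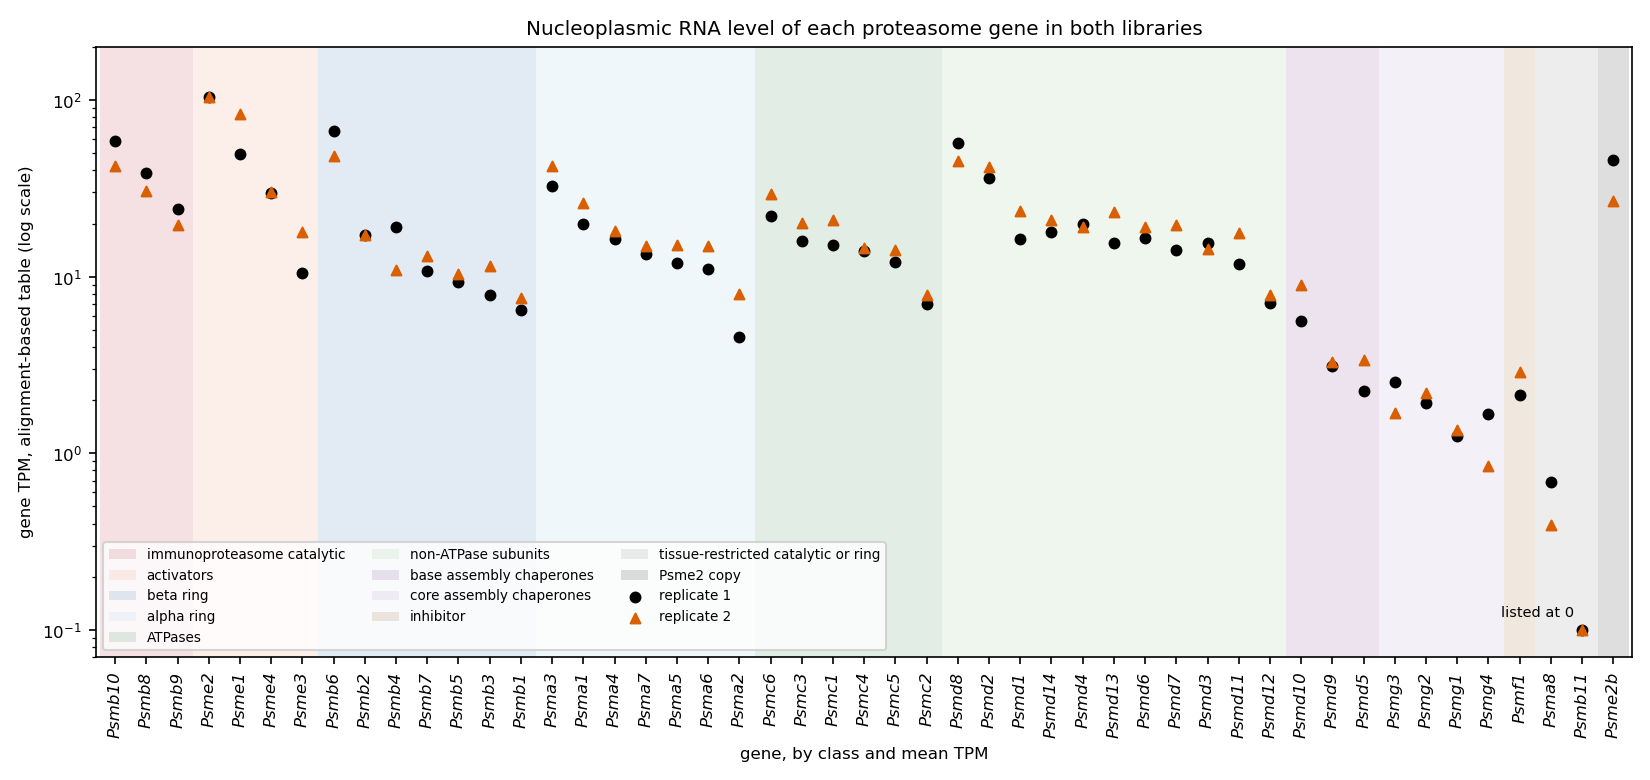
TPM of each of the 49 proteasome genes (log scale) in replicate 1 (circles) and replicate 2 (triangles), shaded by class. Psme2 lies highest at 104 TPM in both libraries, the core assembly chaperones lie between 0.85 and 2.53 TPM, and Psmb11, listed at 0, is drawn at 0.1.

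The immunoproteasome genes were measured first by gene, over all their transcripts. Psmb8 (mm10 chr17:34197721-34201454, plus strand), which encodes the subunit that replaces that of Psmb5, stood at 38.9 TPM in replicate 1 and 30.4 TPM in replicate 2. Psmb5 (chr14:54614119-54618022, minus strand), the gene of the constitutive chymotrypsin-like subunit, stood at 9.37 and 10.4 TPM. Psmb8 was thus 4.15-fold higher than Psmb5 in replicate 1 and 2.92-fold higher in replicate 2, a log2 ratio of 1.80 ± 0.36 (SD, n = 2). Psmb10 (chr8:105935735-105938444, minus strand) stood at 59.0 and 42.2 TPM against 10.7 and 13.0 TPM for Psmb7 (chr2:38588036-38644087, minus strand), the gene of the trypsin-like subunit it replaces. This pair had a log2 ratio of 2.08 ± 0.54 (SD, n = 2). For both genes the levels of the 2 libraries lay well above every level of the constitutive partner.

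The other catalytic pair had the opposite order. Psmb9 (chr17:34181987-34187764, minus strand) stood at 24.1 TPM in replicate 1 and 19.7 TPM in replicate 2. Its constitutive partner Psmb6 (chr11:70525367-70527858, plus strand), the gene of the caspase-like subunit, stood at 67.1 and 48.3 TPM and had the highest level of all constitutive members in this table. Psmd8 was higher in both libraries of the read-based table (40.7 and 43.6 against 33.5 and 39.2 TPM), and Psmd2 and Psmd8 were higher in protein_coding transcripts. Psmb9 was therefore lower than Psmb6 by a log2 ratio of -1.39 ± 0.13 (SD, n = 2), a gap of 2.79-fold in replicate 1 and 2.45-fold in replicate 2. Psmb9 and Psmb8 flank Tap1, a gene of the peptide transporter, in the MHC region: exons of Psmb9 and Tap1 on opposite strands share 212 bases, and 495 bases lie between Tap1 and Psmb8. Exons of Psmb8 share 498 bases with an antisense gene that held 7 and 0 counts. Exons of Psmb7, the partner of Psmb10, share 405 bases with Nek6, an opposite-strand gene that held 872 and 738 counts. Psmb7 itself held 563 and 496 counts. Whether strand was used in counting is not stated in the labels or headers, so reads in such shared stretches cannot be told apart.

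Among the activators, Psme2 (chr14:55587441-55591113, minus strand), the gene of PA28 beta, had the highest level of all 49 members over all transcripts, with 104.0 and 103.9 TPM. Psme1 (chr14:55578123-55581529, plus strand), the gene of PA28 alpha, lies 5911 bases away and stood at 49.5 TPM in replicate 1 and 83.4 TPM in replicate 2. Psme3 (chr11:101316213-101323537, plus strand), which encodes the nuclear activator PA28 gamma, stood at 10.4 and 18.0 TPM. The log2 ratio to Psme3 was 2.92 ± 0.56 for Psme2 and 2.23 ± 0.02 for Psme1 (SD, n = 2 each). In protein_coding transcripts alone these were 1.66 ± 1.03 and 0.98 ± 0.63. The close match of the libraries for Psme1 rested on 1 short transcript described further on, without which the ratio was 2.09 in replicate 1 and 0.84 in replicate 2. Psme4 (chr11:30771726-30880361, plus strand), the gene of the PA200 activator, stood at 29.9 and 30.1 TPM, between Psme3 and the PA28 alpha and beta genes in both libraries. In replicate 1 of the read-based table Psme4 lay above Psme1, at 26.7 against 18.8 TPM. PA28 alpha and beta form a mixed ring, and the log2 ratio of Psme1 to Psme2 over all transcripts was -0.70 ± 0.53 (SD, n = 2), negative in both libraries.

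Psme2 has a near-identical copy, Psme2b (chr11:48945354-48946190, minus strand), which the rule also matched. The coding sequences of both are 717 bases long and matched at 712 of them (99.3%), with no gap. They are shown from base 454 to base 543 of the coding sequence, counted from 1 at the start codon, as read from the GENCODE M21 transcripts, because this stretch holds 3 of the 5 differences (capitals).
Psme2: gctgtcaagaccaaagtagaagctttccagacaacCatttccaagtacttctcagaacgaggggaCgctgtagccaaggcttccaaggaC
Psme2b: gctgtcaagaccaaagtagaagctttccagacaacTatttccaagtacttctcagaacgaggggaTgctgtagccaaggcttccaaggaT
Of the runs of 31 bases in the transcripts of Psme2, 62.6% also occur in Psme2b, and 76.5% of those of Psme2b occur in Psme2. Psme2b stood at 45.6 TPM in replicate 1 and 26.8 TPM in replicate 2 in the alignment-based table, and at 29.7 and 44.0 TPM in the read-based table, so the order of the libraries in TPM differs between the tables. By scaled counts it was lower in replicate 2 in both, with log2 ratios of -1.02 and -0.27. The copy took 35.1% and 28.2% of the pair's counts in the alignment-based table and 47.8% and 54.9% in the read-based table. How the pair's reads divide is thus uncertain in these files, and the level of Psme2 shares that uncertainty. With both summed, the pair reached 149.6 TPM in replicate 1 and 130.8 TPM in replicate 2.

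The gene levels above add up transcripts of different kinds, and in the protein_coding transcripts alone Psmb8 and Psmb5 stood at nearly the same level. GENCODE, the annotation used, also lists models that keep an intron (retained_intron), that are marked for nonsense-mediated decay, or that have no reading frame (processed_transcript). In nuclear RNA, reads inside an intron can come from a retained intron or from RNA not yet spliced, and the tables do not tell these apart. Of the TPM of Psmb8, 25.7% lay in protein_coding transcripts in replicate 1 and 35.8% in replicate 2, and all the rest in retained_intron models. In protein_coding transcripts alone Psmb8 stood at 9.99 and 10.9 TPM beside 9.37 and 10.4 TPM for Psmb5, a log2 ratio of 0.08 ± 0.02 (SD, n = 2). For Psmb10 and Psmb7 the log2 ratio fell from 2.08 to 0.50 ± 0.38 (SD, n = 2). The order of Psmb9 and Psmb6 was the same in protein_coding transcripts, at -1.13 ± 0.05 (SD, n = 2). Psmb5 itself had all its TPM in protein_coding transcripts and has no transcript of another kind in the tables. Within that pair the restriction could thus lower the level of Psmb8 only.

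**Figure D2:**
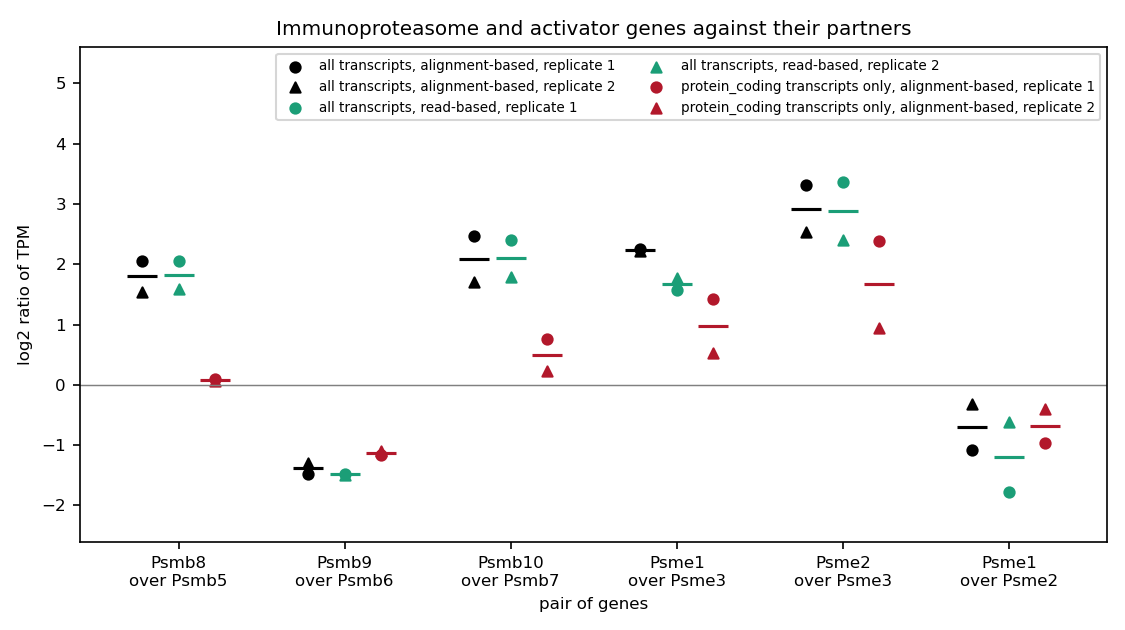
Log2 ratio of TPM between paired genes in replicate 1 (circles) and replicate 2 (triangles), with the mean as a line, over all transcripts in both tables and over protein_coding transcripts alone. The ratio of Psmb8 to Psmb5 lies near 1.8 over all transcripts of either table and near 0.08 in protein_coding transcripts, whereas Psmb9 lies below Psmb6 throughout.

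The transcripts that led these genes are listed next, since their length sets how many reads stand behind a TPM. In Psmb8 a retained_intron model of 1234 bases led in both libraries, with 841 and 463 expected counts, or 57.2% and 59.8% of the gene's counts. In Psmb10 a processed_transcript of 426 bases held 52.5% and 57.1% of the gene's TPM, but 21.6% and 23.6% of its counts, and the protein_coding transcript of 1311 bases held 52.4% and 58.8% of the counts. Whether Psmb10 appears mostly coding therefore depends on the measure, whereas Psmb8 does not, with 16.9% and 26.2% of its counts in protein_coding transcripts. In Psme1 a nonsense_mediated_decay model of 439 bases held 4.96 TPM in replicate 1 and 51.1 TPM in replicate 2, on 40.3 and 313 expected counts. Without this model Psme1 would stand at 44.5 and 32.3 TPM, so the higher gene level in replicate 2 rested on 1 short transcript. In Psme2 a retained_intron model of 185 bases gave 10.6 and 19.1 TPM from 4.94 and 6.57 expected counts, and without it the gene would stand at 93.4 and 84.8 TPM.

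Across the members at 1 TPM or more, a median of 74.0% of the gene's TPM lay in protein_coding transcripts in replicate 1 and 79.4% in replicate 2. The same medians over 9220 protein-coding genes at that level were 75.8% and 81.1%, close to those of the members. By expected counts the members' medians were lower than the background, 78.8% and 83.4% against 89.7% and 92%. Their median share of counts in retained_intron models was 15.4% and 9.25%, against 3.93% and 2.45% over the protein-coding genes. Under 50% in both libraries were 6 of the 46 members (13.0%), against 14.7% of the protein-coding genes. These 6 were Psmb8, Psmb10 and Psme2, the alpha ring gene Psma3, the ATPase gene Psmc6 and the lid subunit gene Psmd6. The median over Psmb8, Psmb9, Psmb10, Psme1 and Psme2 was 45.5% and 32.3%, and over the 31 constitutive subunits of both particles 75.6% and 81.5%. The leading transcript was protein_coding in both libraries for 41 of the 46 members. It was of another kind in both for Psmb8, Psmb10 and Psma3, and in 1 of the libraries for Psme1 and Psme2.

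**Figure D3:**
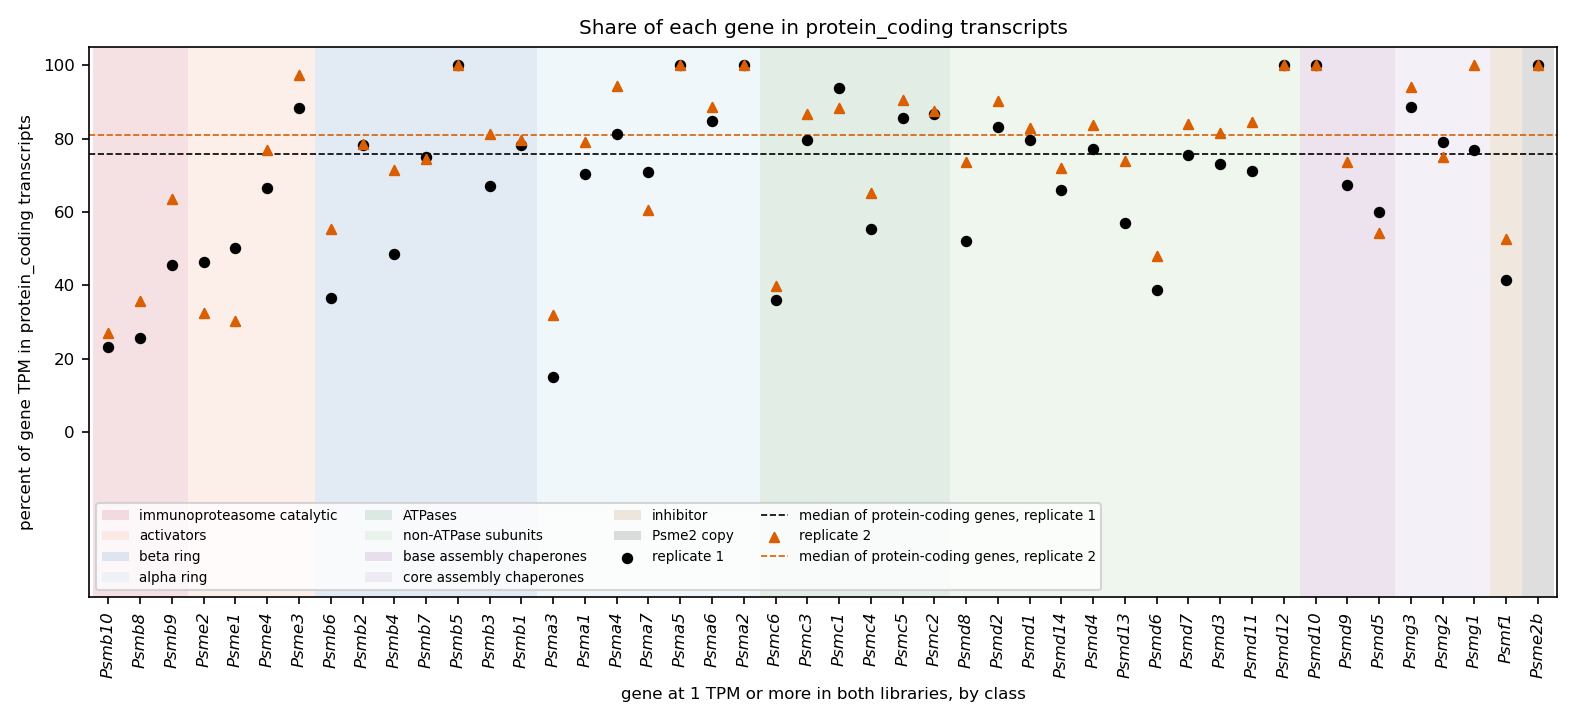
Percent of each gene's TPM in protein_coding transcripts for the 46 members of at least 1 TPM in each library, in replicate 1 (circles) and replicate 2 (triangles), shaded by class, with the medians of all protein-coding genes at that level as dashed lines. Psmb8, Psmb10 and Psma3 lie at 35.8% or less in both libraries. The ring genes Psma2, Psma5 and Psmb5 and the lid gene Psmd12 are among those at 100%. Only 41 of the 46 have annotated transcripts of another kind, so a share below 100% was possible for these 41 alone.

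The constitutive subunits lay close together in level. Over the 31 genes of the alpha ring, the beta ring, the ATPases and the non-ATPase subunits, the upper quartile was 1.62-fold above the lower quartile in each library. Over protein-coding genes at 1 TPM or more this distance was 5.03-fold in replicate 1 and 4.95-fold in replicate 2. The extremes were 9.20-fold apart by mean level, from Psma2 at 6.28 TPM to Psmb6 at 57.7 TPM. The class medians also lay close, at 14.3 ± 1.1 TPM for the alpha ring, 11.1 ± 0.57 TPM for the beta ring, 16.0 ± 2.0 TPM for the ATPases and 18.0 ± 2.2 TPM for the non-ATPase subunits (SD, n = 2 each). The median over the 3 immunoproteasome genes was 34.7 ± 6.0 TPM (SD, n = 2). Between libraries the medians of the alpha ring and the ATPases overlapped, as did those of the ATPases and the non-ATPase subunits, while the beta ring lay below all of these and the immunoproteasome genes above them in both libraries. In protein_coding transcripts the same medians were 10.9 and 11.4 TPM for the immunoproteasome genes and 9.58 and 13.5 TPM for the 31 constitutive genes, with no gap left.

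In the alpha ring, which gates the entrance of the core, Psma3 was highest with 32.5 TPM in replicate 1 and 42.5 TPM in replicate 2. Only 15.0% and 31.9% of that lay in protein_coding transcripts, which alone gave 4.86 and 13.6 TPM. Psma1 (20.0 and 26.0 TPM) and Psma4 (16.4 and 18.2 TPM) followed. Psma6 (11.0 and 15.0 TPM) and Psma2 (4.56 and 7.99 TPM) were the lowest of the ring. In the beta ring, Psmb2 (17.3 and 17.2 TPM) and Psmb4 (19.1 and 10.8 TPM), which carry no active site of their own, came after Psmb6. Psmb3 (7.88 and 11.5 TPM) and Psmb1 (6.48 and 7.60 TPM) were the lowest. Psmb3 and Psmb5 share 66.8% and 71.7% of their runs of 31 bases with other genes, led by pseudogenes at 0 counts in both libraries. Psme2 and Psme2b aside, Psma5 followed at 66.5%, Psmd2 at 44.4% and Psmc1 at 39.7%. The levels of all these genes depend on how such reads were assigned.

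In the regulatory particle, Psmd8 (56.9 and 44.9 TPM) and Psmd2 (36.2 and 41.6 TPM) were the highest over all transcripts of the alignment-based table. The former encodes a lid subunit and the latter a large scaffold subunit of the base. Psmd1, its fellow scaffold, stood at 16.4 and 23.6 TPM. Psmd11 (11.8 and 17.6 TPM) and Psmd12 (7.09 and 7.84 TPM), both genes of lid subunits, were the lowest non-ATPase subunits. Of the ATPases, which form the unfolding ring, Psmc6 was highest over all transcripts (22.2 and 29.5 TPM), but stood at 7.98 and 11.8 TPM in protein_coding transcripts, below Psmc1 at 14.2 and 18.4 TPM. Over all transcripts it was followed by Psmc3 (16.0 and 20.2 TPM) and Psmc1 (15.2 and 20.9 TPM). Psmc5 (12.1 and 14.2 TPM) and Psmc2 (7.03 and 7.88 TPM) were the lowest of the ATPases.

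Most of the members for assembly and inhibition lay below the subunits. The core assembly chaperones Psmg1 to Psmg4, which help the alpha ring form, had a median of 1.65 ± 0.20 TPM (SD, n = 2), from Psmg3 at 2.53 and 1.68 TPM to Psmg4 at 1.67 and 0.85 TPM. The base assembly chaperones had a median of 3.24 ± 0.17 TPM (SD, n = 2), with Psmd10 at 5.62 and 9.01 TPM, Psmd9 at 3.12 and 3.29 TPM and Psmd5 at 2.25 and 3.36 TPM. Psmf1, the gene of the inhibitor PI31, stood at 2.15 and 2.90 TPM. Every one of these levels was below the lowest constitutive subunit of the same library except Psmd10, which exceeded Psma2 in both libraries and also Psmb1, Psmd12 and Psmc2 in replicate 2. Pomp, an assembly factor outside the rule, stood at 13.6 and 10.9 TPM, near the beta ring median. Psma8, the testis form of an alpha subunit, held 0.69 and 0.39 TPM on 21 and 11 counts. Psmb11, the thymus form of the chymotrypsin-like subunit, was listed at 0 in the alignment-based table, which allows up to 0.126 and 0.145 CPM, counts scaled to the library total. The read-based table gave Psmb11 216 and 146 estimated counts, or 0.477 and 0.602 TPM. Its transcripts share 5.45% of their runs of 31 bases with other genes.

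The libraries differed in the immunoproteasome genes more than in most constitutive ones. The measure was the log2 ratio of counts, replicate 2 over replicate 1, scaled to the effective library size, with a 95% interval that covers counting error only. Psmb9 held 1303 and 622 counts, a log2 ratio of -0.87 (interval -1.01 to -0.73). Psmb8 held 1469 and 774 counts (-0.73), Psmb10 1096 and 590 (-0.70), Psme2 1987 and 1174 (-0.56) and Psme1 1408 and 1073 (-0.19, interval -0.31 to -0.08). All 5 were lower in replicate 2 with an interval below 0, and their median was -0.70. Over the 31 constitutive subunits the median was -0.04, with 5 intervals below 0 and 6 above it. The median was 0.02 over the 9675 genes of the whole table that averaged at least 100 counts. Of the 43 members at that count, 12 had an interval below 0 and 8 above it. The share of all genes with such an interval is not given here, so the interval counts have no background.

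Of the 43 members that averaged at least 100 counts, 1 differed by more than 2-fold, against 3.49% of all genes at that count (1.67% higher in replicate 2 and 1.82% lower). This was Psme2b, at -1.02 (interval -1.18 to -0.86). Besides the sequence it shares with Psme2, its exons share 41 bases on the same strand with 9930111J21Rik1. That gene held 5551 counts in replicate 1 and 2291 in replicate 2, and its part in the Psme2b ratio was not tested. No immunoproteasome gene passed 2-fold. Among the constitutive subunits Psmb6 (-0.66) and Psmb4 (-0.62) were also lower in replicate 2, and Psmd11 (0.38) had the highest ratio. Psme3 moved the other way from its fellow activators, at 0.63 (interval 0.51 to 0.76), on 874 and 1183 counts. In TPM all genes at that count were higher in replicate 2 by a median log2 ratio of 0.26, and relative to that shift the 5 immunoproteasome and PA28 genes lay at -0.55 and the constitutive subunits at -0.03. In TPM 4 of the 5 were lower in replicate 2, Psme2 by the small step from 104.0 to 103.9, with Psme1 the exception through the short transcript described above.

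GC content moved with these ratios. The longest coding transcripts of the 5 genes had 52.8% to 56.5% GC, and those of the constitutive subunits 37.0% to 58.3%. Across the 31 constitutive genes, which share both libraries, Pearson's r between GC content and the log2 ratio was -0.59, and over 8645 genes it was -0.35. With the median of all genes of like GC content removed, the 5 genes lay at a median of -0.53. All were below 0, Psme1 at -0.10. Of the 31 constitutive genes 20 were below 0 by this measure, and their median was -0.03. The part of GC content in the difference was not tested. The starting quantity of RNA also differed between the libraries, and its part in the difference was not tested. With 1 library each, the difference compares these libraries and no conditions.

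**Figure D4:**
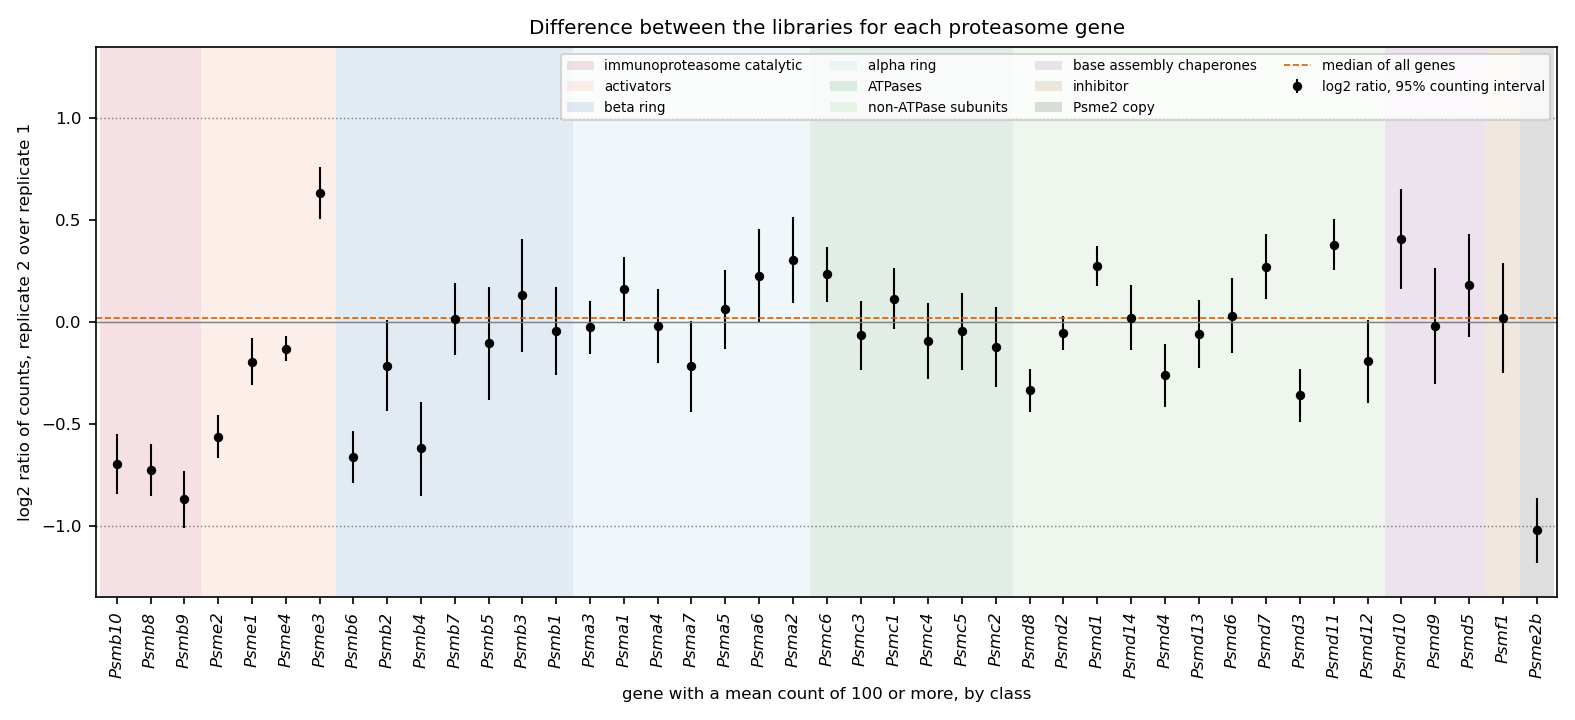
Log2 ratio of counts, replicate 2 over replicate 1, for the 43 members that averaged at least 100 counts, with 95% counting intervals, shaded by class; the dashed line is the median of all genes and the dotted lines mark 2-fold. Psmb8, Psmb9, Psmb10 and Psme2 lie between -0.87 and -0.56, most constitutive genes lie near 0, and Psme2b lies beyond 2-fold.

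Genes that act with the proteasome were read from a list of 30, of which 29 were measured and Paaf1 was not analysed here. Of these, 19 reached 10 TPM in each library, a level that 15.6% of protein-coding genes reached, and 0 of the 29 differed by more than 2-fold between the libraries, against 3.49% of all genes of at least 100 counts. The regulators of the immunoproteasome and MHC class I genes had high levels. Irf1, an interferon-response factor, stood at 357 TPM in replicate 1 and 230 TPM in replicate 2, and Nlrc5, an activator of MHC class I genes, at 122 and 98.3 TPM. Both were lower in replicate 2 by counts, with log2 ratios of -0.83 and -0.88. The transporter genes Tap1 (128 and 109 TPM, log2 ratio -0.52) and Tap2 (51.2 and 41.5 TPM, -0.56) were lower as well. Tapbp, the gene of tapasin, was not (359 and 424 TPM, 0.02), and Erap1, the gene of a peptide-trimming enzyme, was higher in replicate 2 (15.9 and 30.4 TPM, 0.56). Nfe2l1, which drives constitutive proteasome genes when the proteasome is impaired, stood at 67.0 and 91.9 TPM with a log2 ratio of 0.15.

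Promoters were read for letters that fit factors known for these genes, from 250 bases before to 50 after the RefSeq start (GRCm38.p6), on both strands, and 41 members had a promoter in that table. Members were counted by gene, and the background by promoter. A gene with several listed promoters, such as Psme2, therefore had more chances of a match than a single background promoter. For each motif below, the share of members and the share of all promoters are thus not strictly comparable. The interferon-response motif (GAAA, any 2 bases, GAAA) was in 5 of the 41 (12.2%) and in 3.44% of all 32851 promoters. Of the 5 immunoproteasome and PA28 genes, Psme1 held it, and the other holders were Psmb3, Psmd4, Psmd9 and Psmg4. The interferon gamma activation motif TTCNNNGAA was in 3 of the 41 (7.32%) and in 8.30% of all promoters. Of the 5 genes Psmb8 held it, and the other holders were Psmd2 and Psmg1. The antioxidant-response motif TGACNNNGC, which NFE2L1 and related factors bind, was in 6 of the 41 (14.6%) and in 12.4% of all promoters. Its holders were Psmb5, Psmb6, Psmc6, Psmd12, Psmd9 and Psme4. It was in 4 of the 25 constitutive genes read and in 0 of the 5, too few genes to compare. The kappaB motif (GGG, any 5 bases, CC) was in 23 of the 41 (56.1%) and in 50.8% of all promoters, and so separates little. Of the members' promoters with a match, 4 are shown as examples: Psmb8 and Psme1, the immunoproteasome and PA28 genes that hold one of the first 2 motifs, and Psmb5 and Psmb6, the catalytic partners that hold the antioxidant-response motif. That match is in capitals and kappaB matches are not marked. It lies at -97 in Psmb8, 9 after the start in Psme1, -47 in Psmb5 and -9 in Psmb6. They lie at chr17:34197945-34198244 (plus), chr14:55578244-55578543 (plus), chr14:54617946-54618245 (minus) and chr11:70525107-70525406 (plus).
Psmb8: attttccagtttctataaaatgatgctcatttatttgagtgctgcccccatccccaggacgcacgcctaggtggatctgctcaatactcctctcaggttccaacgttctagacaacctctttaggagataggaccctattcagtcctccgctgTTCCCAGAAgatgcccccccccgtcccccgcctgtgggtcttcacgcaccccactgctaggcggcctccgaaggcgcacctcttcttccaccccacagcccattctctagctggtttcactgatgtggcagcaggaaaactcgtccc
Psme1: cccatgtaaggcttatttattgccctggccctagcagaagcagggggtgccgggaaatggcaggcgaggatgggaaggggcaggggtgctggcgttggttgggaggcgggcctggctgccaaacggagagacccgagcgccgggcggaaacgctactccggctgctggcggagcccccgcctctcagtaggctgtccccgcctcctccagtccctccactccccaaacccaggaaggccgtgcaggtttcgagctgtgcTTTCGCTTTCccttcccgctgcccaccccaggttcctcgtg
Psmb5: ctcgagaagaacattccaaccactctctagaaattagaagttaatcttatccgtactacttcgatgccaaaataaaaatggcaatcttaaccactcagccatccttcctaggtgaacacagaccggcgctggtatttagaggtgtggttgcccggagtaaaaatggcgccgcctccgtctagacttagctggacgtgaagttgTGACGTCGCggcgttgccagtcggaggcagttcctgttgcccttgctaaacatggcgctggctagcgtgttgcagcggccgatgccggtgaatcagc
Psmb6: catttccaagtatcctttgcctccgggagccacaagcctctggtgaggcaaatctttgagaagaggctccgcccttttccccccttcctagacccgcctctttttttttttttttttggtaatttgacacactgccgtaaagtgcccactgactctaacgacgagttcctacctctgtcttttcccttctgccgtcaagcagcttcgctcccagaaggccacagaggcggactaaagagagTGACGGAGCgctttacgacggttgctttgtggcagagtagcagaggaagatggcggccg
In Psme1 the match reads on the minus strand. A match is a description of letters and no site of binding was measured.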

How the data were processed

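For each library the authors deposited gene and transcript tables derived from alignments (alignment-based) and a transcript table derived from reads (read-based), per the file headers on mm10 with GENCODE M21. Neither aligner nor quantifier nor strand setting is named in the sources used here. The authors' gene tables give expected counts, estimated by sharing ambiguous reads among genes, and the authors' deposited TPM is normalised for effective length to a fixed total per library. Deposited read-based tables hold estimated counts and TPM per transcript, summed here per gene. tRNA, spike-in and phage rows were kept out of library sizes. Expected counts were rounded to whole numbers.

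Library ratios used TMM factors (edgeR 4.0.16 in R 4.3.3), a prior count of 0.5, a minimum mean count of 100 and exact Clopper-Pearson 95% intervals, which cover counting error only, as reads lacking molecular identifiers need not be independent molecules. A count of 0 allows 3 counts, or 0.126 and 0.145 CPM. DESeq2 1.42.0 size factors were an alternative. The ratio and interval code was tested on simulated data. There was 1 group, so no p-value was computed, and errors are the SD of 2 libraries. Genes named were all immunoproteasome, PA28 and partner genes, the 3 highest and 2 lowest of each class, and members that were under 1 TPM, beyond 2-fold, led by a noncoding transcript or over 4-fold apart between the tables. The members and lists were chosen with earlier results of these data known. A pathway gene of the planned list is not reported here. Analyses used Python 3.11.15.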

Additional observations from a re-analysis of the deposited data

How the results depend on the processing

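With 2 libraries of 1 group, each value has 1 degree of freedom of error, and members under 100 counts were too shallow for a library ratio. No paired analysis was possible because there is only 1 group. TPM was lower in the read-based table over protein-coding genes at large. Over 9220 of them the median log2 ratio to the alignment-based TPM was -0.86 in replicate 1 and -0.36 in replicate 2. Over the members it was -0.86 and -0.32. In the read-based table the median TPM was 10.1 for the alpha ring, 7.15 for the beta ring, 18.0 for the immunoproteasome genes, 9.26 for the ATPases, 12.9 for the non-ATPase subunits, 33 for the activators, 2.46 for the base and 1.26 for the core assembly chaperones. In protein_coding transcripts alone these were 11.6, 9.47, 11.2, 10.7, 13.6, 23.3 and 2.26 TPM, without the core assembly chaperones, which moved by less than the spread. With TPM rescaled to nuclear protein-coding genes they rose together to 71.5, 55.6, 175.8, 79.5, 89.4, 238.0, 16.2 and 8.37. Means in place of medians gave 17.8 TPM for the alpha ring, 18.4 for the beta ring, 21.8 for the non-ATPase subunits and 4.44 for the base assembly chaperones, whose posterior mean TPM had a median of 3.86. Without members that overlap another expressed gene, an alternative added after seeing the data, the medians were 12.3 TPM for the beta ring, 50.6 for the immunoproteasome genes, of which only Psmb10 was left, 30.0 for the activators and 5.06 for the base assembly chaperones.

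With 2 libraries, leaving out 1 returns the value of the other, as given in the report, and is no check of stability. The log2 ratios in protein_coding transcripts alone were 0.077 for Psmb8 to Psmb5, 0.50 for Psmb10 to Psmb7, -1.13 for Psmb9 to Psmb6, 0.98 for Psme1 to Psme3 and 1.66 for Psme2 to Psme3. Psme1 to Psme3 was 1.68 in the read-based table, 2.15 with a pseudocount of 1 and, as an alternative added after seeing the data, 1.47 without the short transcript of Psme1, which also gave -1.46 for Psme1 to Psme2. No pair changed sign under any setting. Members at 10 TPM or more in both libraries numbered 17 in the read-based table and 21 in protein_coding transcripts alone. The shares of all protein-coding genes at these settings are not given here, and read-based TPM was lower over such genes as given above. The median library ratio of all members was -0.083 by read-based counts and turned to 0.21 by TPM, and that of the constitutive subunits turned to 0.23, where all genes shifted by 0.26. For the 5 immunoproteasome and PA28 genes it was -0.29 by TPM and, added after seeing the data, -0.53 with the GC trend removed and -0.63 without overlapping members, which left only Psmb10 and Psme2. Members beyond 2-fold numbered 0 by read-based counts, 0 by TPM and 3 (Psme2b, Psmg3 and Psmg4) with a minimum of 10 counts or none. The share of all genes beyond 2-fold is not given here for these settings. Psmg3 held 74 and 31 counts (interval -1.71 to -0.43). Psmg4 held 18 and 7 counts, and its interval of -2.67 to 0.16 included 0. The median share of TPM in protein_coding transcripts was 64.9% in the read-based table and 81.1% by counts (90.8% over all protein-coding genes at that level). The cause of these moves was not tested. Of single members, the TPM moved beyond the spread for 39 of 49 in the read-based table, where protein-coding genes at large were lower. It moved for 33 in protein_coding transcripts alone and for 7 with posterior means.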
